A study of Mus musculus with 8 samples.

Results

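The genes described here are the nuclear genes for the proteins of the mitochondrial ribosome. They were taken as the protein-coding mouse genes whose symbol begins with Mrpl (large subunit) or Mrps (small subunit) followed by a number. GENCODE release 21 of the mouse annotation holds 78 such genes, of which 77 were listed in the files among 41388 genes. These 77 are 48 large-subunit and 29 small-subunit genes by symbol. Mrpl33 is not analysed here, and 5 pseudogenes with matching symbols were left out. The RNA came from macrophages of the epididymal white adipose tissue, a visceral fat depot also called eWAT, of 4 male mice fed normal chow. All were of the MitoFat strain, which reports mitochondria made in adipocytes; no source used here gives its promoter, its alleles, the age of the mice or how many cells were sorted. From each mouse, live CD45+ F4/80+ CD64+ cells were sorted into a population without the reporter signal (mtD2-) and one with it (mtD2+), so that both groups share genotype, sex, diet and tissue and the 8 libraries form 4 pairs. The design asks how macrophages that received mitochondria from adipocytes differ from those of the same mouse that did not.

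Mitochondria have their own ribosomes, which translate the few mRNAs of the mitochondrial genome, all of them for subunits of the respiratory chain and the ATP synthase. The ribosomal RNAs are transcribed inside the organelle, while every mitoribosomal protein is encoded in the nucleus, made in the cytosol and imported. Some of these proteins descend from bacterial ribosomal proteins, and others were added in the mitochondrial lineage. The mRNAs described here are thus products of a cell nucleus and not of mitochondria.

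The libraries held 18462287 to 27464399 counts assigned to genes, and 0.150% to 0.236% of these counts fell on mitoribosomal protein genes. The sorted cells expressed their defining markers: the sum of 9 macrophage markers was 11205 to 13239 CPM in mtD2- and 9653 to 11701 in mtD2+. CPM is counts scaled to a common library total. The log2 ratios of this sum (mtD2+ over mtD2-) were -0.20, 0.003, -0.22 and -0.26 in mice 1 to 4. Of the 9, Adgre1 (F4/80) fell and Mertk rose. Markers of fibroblasts and adipocyte precursors were lower in mtD2+, where the sum over 12 genes was 227 to 270 CPM against 818 to 1374 in mtD2-, and 8 of the 12 fell. The sum over 5 B cell markers was also lower in every mouse, at 19.6 to 33.6 CPM against 36.0 to 57.4. The markers were split, however: of the 4 tested, 2 had a negative and 2 a positive log2 fold change, and 1 fell. The sum over 9 adipocyte markers was 874 ± 233 CPM in mtD2+ and 599 ± 85.5 in mtD2- (SD, n = 4) and higher in 3 of the 4 mice; 8 of the 9 had a positive log2 fold change, and none passed the test. Mitochondrial mRNAs took a larger share of the counts in mtD2+ in all 4 mice, with log2 ratios of 0.51, 0.12, 0.41 and 1.92. The summed level of 15 dissociation and heat-shock genes was higher in mtD2+ in mice 1 to 3, with log2 ratios of 0.46, 0.62 and 0.50. The ratio stood at -0.05 in mouse 4. Of these 15 genes, 6 rose and none fell, where 3.72% of all genes tested were called higher. The nuclear-retained RNAs Malat1 and Neat1 both rose, by 0.80 and 1.37 on the log2 scale. On the first principal component, with 26.4% of the variance, the mtD2- library of mouse 4 stood apart at -81.1, while the others lay between -28.3 and 60.5. The part of these differences in the results was not tested.

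Mitoribosomal protein mRNAs were on the whole lower in mtD2+ macrophages, by small amounts. Of the 77 genes, 75 had enough counts to be tested, and 63 of them had a negative log2 fold change (mtD2+ over mtD2-), against 50.1% of all 13933 genes tested. The median log2 fold change was -0.29, with quartiles of -0.40 and -0.15, while the median over all tested genes was -0.001 and over protein-coding genes -0.03. Across all genes, edgeR's quasi-likelihood test with the mouse as a block called 5.50%, taking a gene as called where the p after Benjamini-Hochberg adjustment was under 0.05. Among the 75 genes it called 4, of which Mrpl15, Mrps12 and Mrpl42 fell and Mrps6 rose. The 3 that fell compare with 1.78% of all tested genes called lower, and the 1 that rose with 3.72% called higher. The share of calls among these genes was thus close to the background, and the difference from other genes lay in the many small shifts of one sign.

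The small shifts recurred from mouse to mouse. In 34 of the 75 genes the mtD2+ library was lower than the mtD2- library in all 4 mice, against 16.0% of all tested genes, and in 2 genes it was higher in all 4, against 16.3%. At an unadjusted p under 0.05, 23 genes were lower and 1 was higher. Of all 13933 genes tested, 11.0% were lower and 1642 were higher at that p. The 23 became 13, 18, 9 and 15 without mouse 1, 2, 3 and 4, and 13 with a correction for gene length and GC content. The share of all genes was not taken under these settings, so these counts have no background beside them. In 15 genes every mtD2+ library was below every mtD2- library, against 6.01% of all genes tested, and in none was every mtD2+ library above, against 6.55%. The 15 genes were Mrpl9, Mrpl15, Mrpl21, Mrpl32, Mrpl36, Mrpl40, Mrpl42, Mrpl43, Mrpl44, Mrpl52, Mrpl54, Mrpl57, Mrps12, Mrps18c and Mrps28. The DESeq2 Wald test called 4.80% of all genes lower, and 1130 of 13933 higher. Of the 75 mitoribosomal genes it called 8 lower and Mrps6 higher. It added Mrpl28, Mrpl43, Mrpl54, Mrps14 and Mrps18c to the edgeR calls. In either direction DESeq2 called 9 of the 75, against 1799 of all 13933 genes.

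**Figure D1:**
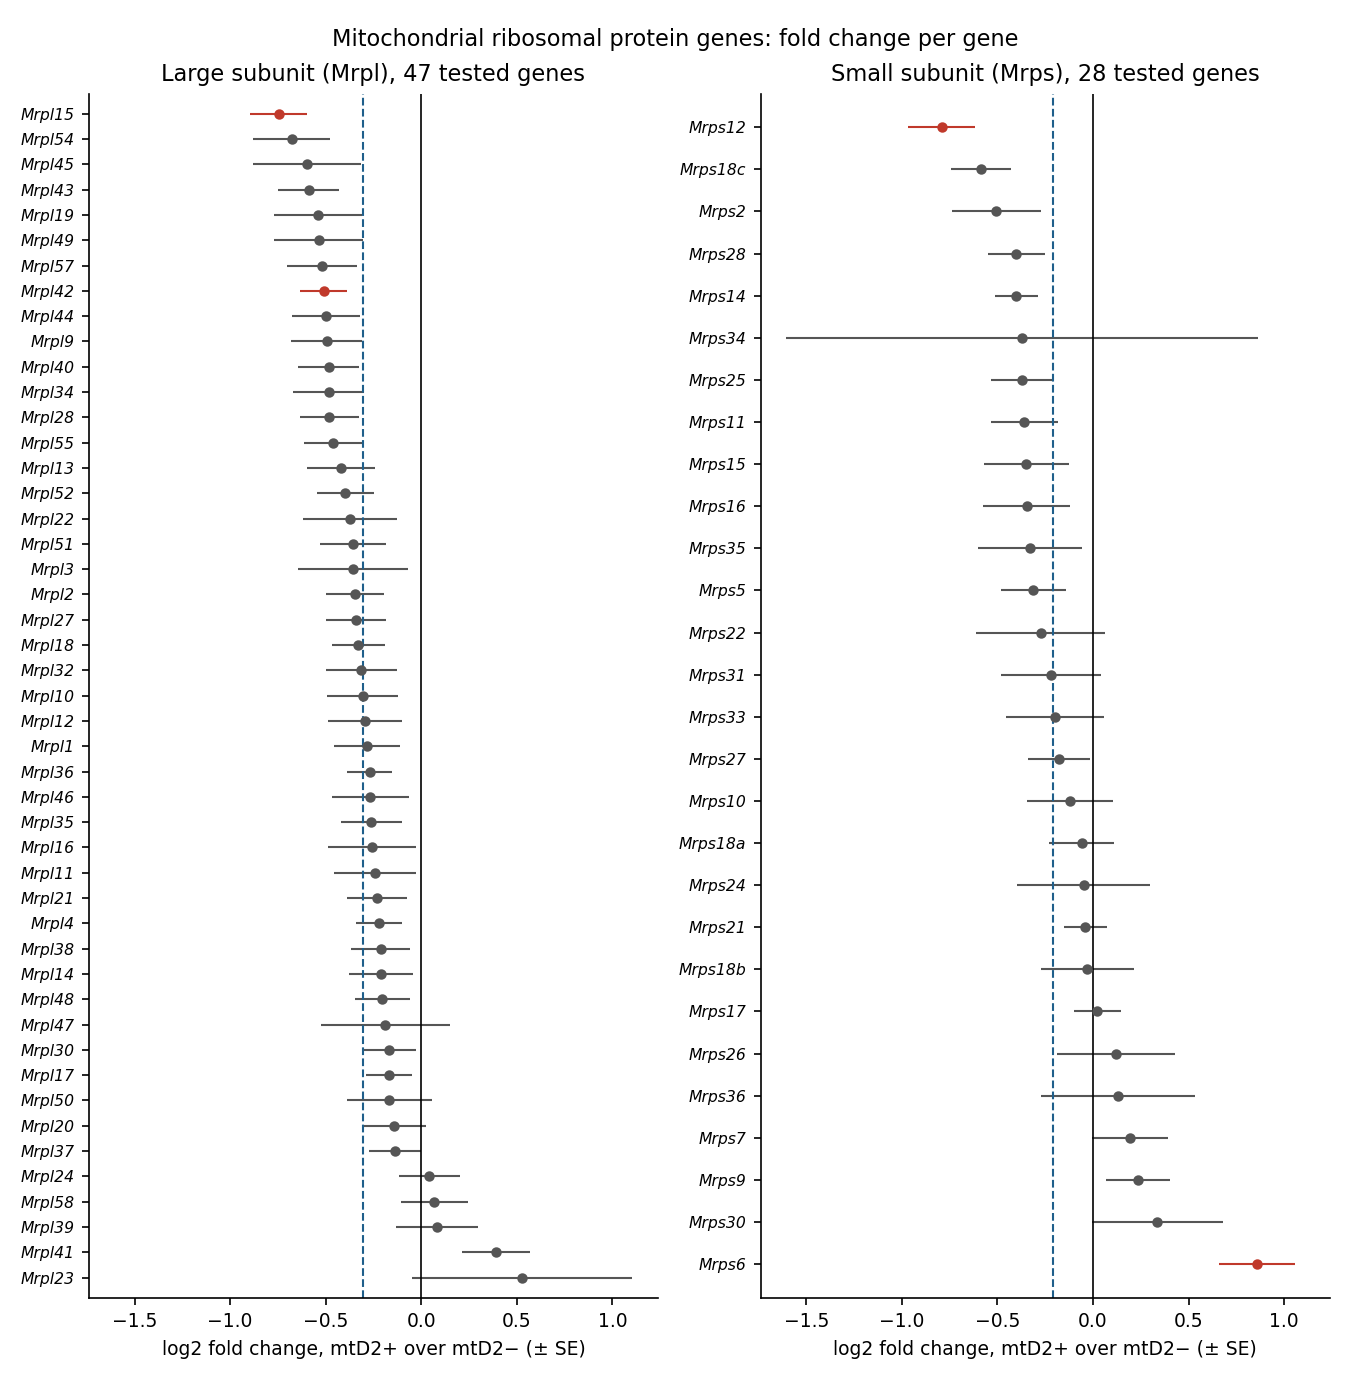
Log2 fold change (mtD2+ over mtD2-, horizontal axis) with its standard error for each of the 47 large-subunit and 28 small-subunit genes tested, ordered by size. Red points passed an adjusted p of 0.05, the solid line marks no change and the dashed line the subunit's median (-0.31 and -0.21); 42 large-subunit and 21 small-subunit genes lie left of the solid line.

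Among the genes that fell, Mrpl15 encodes the counterpart of a bacterial large-subunit protein. The gene (ENSMUSG00000033845) lies on chromosome 1 from 4773206 to 4785739 (GRCm38). Its level was 41.1, 50.4, 35.6 and 35.9 CPM in mtD2- (mice 1 to 4, the order used throughout) against 25.8, 28.6, 17.5 and 26.0 in mtD2+. The groups did not overlap, and mouse 3 had the lowest mtD2+ level. The log2 fold change was -0.75 (SE 0.15, adjusted p = 0.0252), a 1.68-fold lower level.

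Mrps12 encodes the counterpart of the bacterial protein at the decoding centre of the small subunit, where codon and anticodon are matched. The gene (ENSMUSG00000045948) lies on chromosome 7 from 28739641 to 28741820. It stood at 19.4, 21.5, 20.6 and 21.5 CPM in mtD2- against 10.6, 12.9, 11.6 and 12.9 CPM in mtD2+. Replicates lay close together in both groups, and the gap between the groups was wider than either group's range. The log2 fold change was -0.79 (SE 0.18, adjusted p = 0.0381), the most negative of the 75.

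Mrpl42 encodes a large-subunit protein with no bacterial counterpart, and its mRNA had the highest level per kilobase of all 75. The gene (ENSMUSG00000062981) lies on chromosome 10 from 95480806 to 95501927. It stood at 59.5, 65.3, 57.3 and 53.9 CPM in mtD2- against 38.9, 49.8, 35.8 and 42.0 CPM in mtD2+. Again every mtD2+ library was below every mtD2- library, with mouse 2 highest in both. The log2 fold change was -0.51 (SE 0.12), and its adjusted p of 0.04998 was just under the threshold.

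Mrps6, whose product is the counterpart of a bacterial protein of the small subunit's platform, went the other way. The gene (ENSMUSG00000039680) lies on chromosome 16 from 92058270 to 92112227. It stood at 23.6, 24.7, 9.59 and 42.0 CPM in mtD2- against 39.8, 36.2, 29.6 and 61.4 CPM in mtD2+. It was higher in mtD2+ in each of the 4 mice, but the groups overlapped because the mtD2- library of mouse 4 was above 3 of the mtD2+ libraries. The log2 fold change was 0.86 (SE 0.20, adjusted p = 0.0435).

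Mrps6 shares its start with another gene. Slc5a3, which encodes the sodium-coupled myo-inositol transporter, lies on the same strand inside the Mrps6 span, from 92058322 to 92087473, and RefSeq places the starts of the 2 genes 14 bases apart. Of the exonic bases of Mrps6, 15.1% also belong to Slc5a3. Slc5a3 stood at 67.2, 50.1, 44.3 and 88.0 CPM in mtD2- against 166, 132, 127 and 305 CPM in mtD2+. It rose in every mouse, by 1.51 on the log2 scale (SE 0.12, adjusted p = 0.00128), and the groups did not overlap. No source used here says how reads in shared exons were counted, so the Mrps6 level is uncertain, and the part of Slc5a3 reads in it was not tested.

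**Figure D2:**
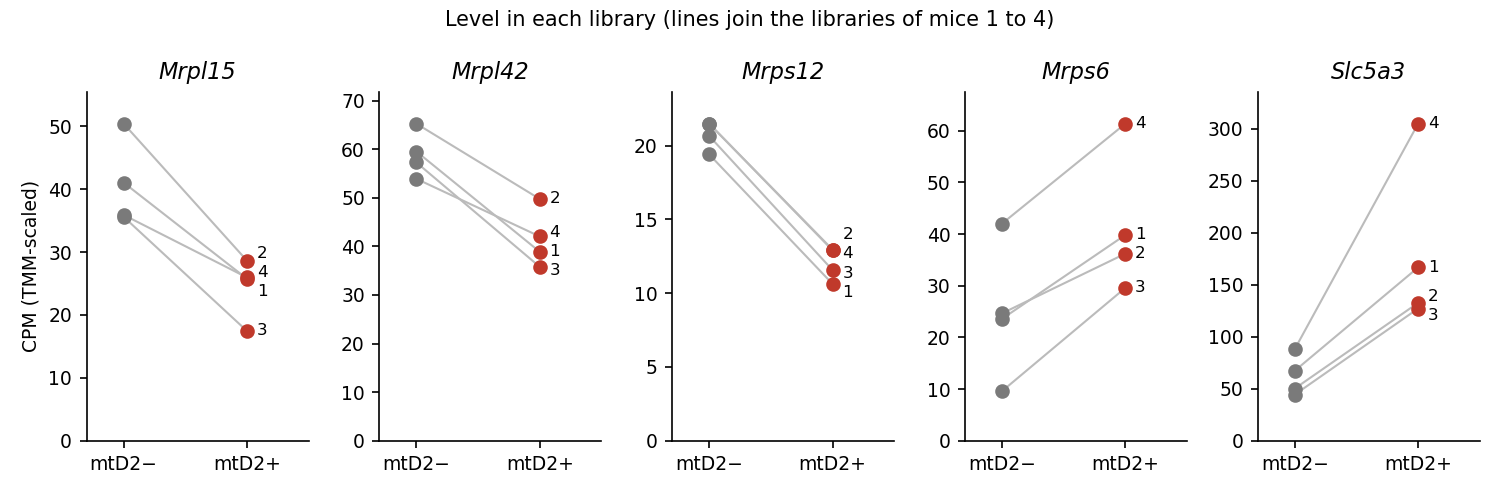
Level (CPM, TMM-scaled, vertical axis from 0, each panel with its own scale) of Mrpl15, Mrpl42, Mrps12, Mrps6 and Slc5a3 in each library. Lines join the libraries of mice 1 to 4 (numbers on the right); the first 3 genes are lower in mtD2+ in every mouse and the last 2 are higher.

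The 4 calls were near the limit of what the pairs resolve. None of the 4 passed when mouse 1, 2 or 3 was left out, and Mrpl15 alone passed without mouse 4 (adjusted p = 0.0310). Their directions held throughout, with log2 fold changes of -0.84 to -0.65 for Mrpl15, -0.81 to -0.77 for Mrps12, -0.56 to -0.45 for Mrpl42 and 0.63 to 0.97 for Mrps6. Without the pairing by mouse, Mrps12 alone passed (adjusted p = 0.0493). With each library's counts corrected for gene length and GC content, Mrpl15 and Mrps6 passed, at adjusted p-values of 0.00987 and 0.0217. Mrpl42 was lost with DESeq2's size factors (adjusted p = 0.0535) and Mrps6 with scaling by library totals alone (adjusted p = 0.0516), a scaling under which the split of all calls was 407 higher to 349 lower in place of 519 to 248.

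The promoters of the called genes are shown because they are the sequence at which nuclear control of these genes is known to act. The 200 bases before each start were read from RefSeq on GRCm38.p6 and are written on the gene's strand, 5′ to 3′. Mrpl43 and Mrpl9 were added after their motif matches were seen, to show an ETS and an NRF1 match. Capitals mark matches, on either strand, to 3 short cores searched for: GCGCATGCG for NRF1 (nuclear respiratory factor), CCGGAAG for the ETS family, to which the GABP factor belongs, and AAGATGGC for YY1.
Mrpl42 (chr10:95501950-95502149, minus strand): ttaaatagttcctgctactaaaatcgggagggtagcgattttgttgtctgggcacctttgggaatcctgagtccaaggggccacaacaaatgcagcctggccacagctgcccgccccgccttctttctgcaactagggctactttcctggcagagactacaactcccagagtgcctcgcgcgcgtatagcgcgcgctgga
Mrps12 (chr7:28741822-28742021, minus strand): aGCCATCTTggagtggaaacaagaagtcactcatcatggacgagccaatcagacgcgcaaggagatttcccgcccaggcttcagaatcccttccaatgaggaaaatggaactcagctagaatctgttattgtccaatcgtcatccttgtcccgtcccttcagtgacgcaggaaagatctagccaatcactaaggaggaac
Mrps6 (chr16:92058136-92058335, plus strand): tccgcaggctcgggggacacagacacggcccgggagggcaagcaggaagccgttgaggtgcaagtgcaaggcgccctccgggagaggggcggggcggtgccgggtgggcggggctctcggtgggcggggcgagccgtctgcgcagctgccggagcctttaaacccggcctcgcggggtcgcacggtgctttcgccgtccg
Mrpl43 (chr19:45006443-45006642, minus strand): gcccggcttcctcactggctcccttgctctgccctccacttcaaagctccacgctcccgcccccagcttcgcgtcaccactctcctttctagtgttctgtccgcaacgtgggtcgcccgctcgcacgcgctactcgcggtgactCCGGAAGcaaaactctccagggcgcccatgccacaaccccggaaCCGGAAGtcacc
Mrpl9 (chr3:94443136-94443335, plus strand): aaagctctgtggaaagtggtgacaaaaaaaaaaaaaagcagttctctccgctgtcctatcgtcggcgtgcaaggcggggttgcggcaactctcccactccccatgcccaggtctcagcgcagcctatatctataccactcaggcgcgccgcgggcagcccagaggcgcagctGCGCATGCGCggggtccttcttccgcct

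In these stretches Mrps12 holds a YY1 core on the opposite strand at -199 to -192 from its start, and Mrpl43 holds ETS cores at -56 to -50 and -12 to -6. Mrpl9 holds the NRF1 core on both strands between -28 and -19, where the 2 matches overlap. Mrpl42 has a YY1 core at 28 to 35 after its start, and Mrps12 an ETS core at 2 to 8, both outside the stretch shown. Mrps6 had no match in its 300-base promoter, which runs from 250 bases before to 50 after the start. Mrpl15 was not among the promoters used here.

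Of the 77 genes, 68 had at least 1 RefSeq promoter, 74 promoters in all. The ETS core was in 33.8% of the 74 promoters, against 8.86% of all 32851 promoters of that length and 17.2% of the promoters of tested protein-coding genes. The YY1 core was in 16.2%, against 2.75% and 4.42%, and the NRF1 core in 9.46%, against 1.75% and 3.55%. At least 1 of the 3 was in 37 of the 74 (50%), against 12.5% and 23.3%. The median log2 fold change was -0.31 for the 35 tested genes with a match and -0.24 for the 31 without, so that genes with and without these letters had similar median changes.

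The large and the small subunit differed in how many of their genes were lower. Of 47 large-subunit genes tested, 42 had a negative log2 fold change, and the median was -0.31. Of 28 small-subunit genes tested, 21 had a negative one, and the median was -0.21. In 27 large-subunit genes (57.4%) and 7 small-subunit genes (25.0%) the mtD2+ library was lower in all 4 mice. Both shares were above the 16.0% of all genes tested. Every mtD2+ library was below every mtD2- library in 12 of the 47 large-subunit and 3 of the 28 small-subunit genes, against 6.01% of all genes tested.

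Mouse by mouse, the median log2 ratio of the large-subunit genes was -0.20, -0.29, -0.36 and -0.32, and that of the small-subunit genes -0.10, -0.08, -0.20 and -0.36. The large-subunit median was the lower one in mice 1 to 3 and the higher one in mouse 4. The median of all tested genes stayed between -0.03 and 0.01 in every mouse. The order of the subunits was the same whichever mouse was left out, with medians of -0.35 to -0.28 for the large and -0.25 to -0.12 for the small subunit.

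The summed level was also lower for both subunits. Its log2 ratio was the more negative one for the large subunit in all 4 mice. In mouse 4, where the medians had the other order, it was -0.36 for the large and -0.26 for the small subunit. Large-subunit mRNA added up to 1385, 1522, 1277 and 1489 CPM in mtD2- and to 1169, 1273, 967 and 1160 CPM in mtD2+ (1418 ± 111 and 1142 ± 128 CPM, SD, n = 4). The sum was lower in mtD2+ in every mouse, and every mtD2+ sum was below every mtD2- sum. The gap was narrow, between 1277 CPM (mtD2-, mouse 3) and 1273 CPM (mtD2+, mouse 2). These sums group genes by symbol and leave out Mrps18a, whose protein sits in the large subunit. Mrps18a stood at 33.4 CPM in the first of these libraries and at 54.7 CPM in the second. The lack of overlap thus depends on the grouping by symbol. Small-subunit mRNA added up to 654, 674, 623 and 722 CPM in mtD2- and to 593, 648, 542 and 603 CPM in mtD2+ (668 ± 41.5 and 596 ± 43.8 CPM, SD, n = 4). This sum too was lower in mtD2+ in every mouse, but the mtD2+ library of mouse 2 was above the mtD2- library of mouse 3. Fewer cells of a type and less RNA per cell cannot be told apart in such bulk samples.

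The ratio of large-subunit to small-subunit mRNA was 2.12, 2.26, 2.05 and 2.06 in mtD2- and 1.97, 1.96, 1.78 and 1.92 in mtD2+. With genes grouped by symbol, it was lower in mtD2+ in all 4 mice, and the groups did not overlap (2.12 ± 0.0952 and 1.91 ± 0.0866, SD, n = 4). As for the large-subunit sum, this lack of overlap depends on the grouping by symbol. Without Mrps6, an alternative chosen after its overlap with Slc5a3 was seen, the ratio was 2.20 ± 0.108 in mtD2- and 2.06 ± 0.115 in mtD2+, lower in all 4 mice but with overlapping groups. The mtD2+ libraries of mice 1 and 4, at 2.11 and 2.14, were then above the mtD2- library of mouse 3, at 2.08. The mean log2 difference in this ratio was -0.10 without Mrps6 and -0.15 with it, and in mouse 4 alone it was -0.03 without Mrps6. The mean log2 ratio of the small-subunit sum was then -0.22 in place of -0.16, against -0.32 for the large subunit.

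**Figure D3:**
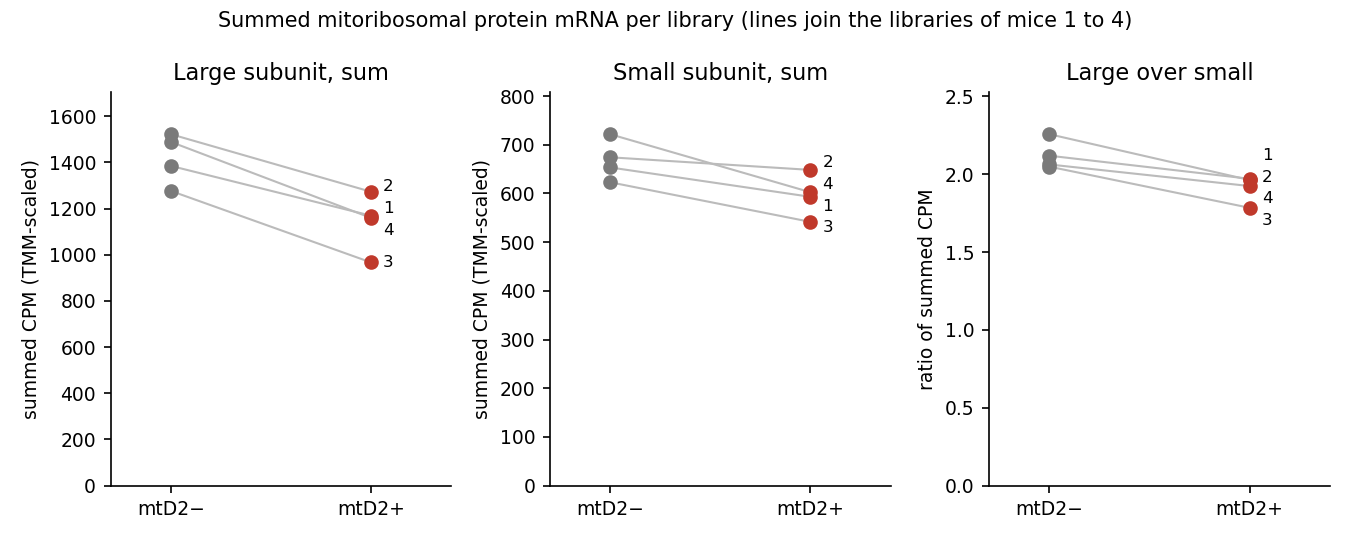
Summed level (CPM, TMM-scaled, vertical axis from 0) of the large-subunit and of the small-subunit genes, grouped by symbol, and the ratio of the sums, in each library. Lines join the libraries of mice 1 to 4; the large-subunit sum lies at 1277 to 1522 CPM in mtD2- and at 967 to 1273 CPM in mtD2+, and the ratio at 2.05 to 2.26 and at 1.78 to 1.97.

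The symbols do not always match the place of the protein. Mrps30 and Mrps18a carry small-subunit names although their proteins sit in the large subunit, and the protein of Mrps36 works with the 2-oxoglutarate dehydrogenase complex. Mrps30 stood at 3.50, 5.90, 5.00 and 2.58 CPM in mtD2- against 4.15, 5.16, 7.00 and 4.58 in mtD2+ (log2 0.34, SE 0.34, adjusted p = 0.605). Mrps18a stood at 49.0, 42.3, 33.4 and 59.2 CPM in mtD2- against 38.2, 54.7, 38.8 and 42.8 in mtD2+ (log2 -0.06, SE 0.17). Mrps36 stood at 3.50, 2.76, 3.95 and 3.08 CPM in mtD2- against 4.19, 4.30, 2.61 and 3.56 in mtD2+ (log2 0.13, SE 0.40). The groups overlapped in all 3, and none passed the test. Grouped by place in place of symbol, the median was -0.29 for 49 large-subunit genes and -0.27 for 25 small-subunit genes, so that the medians lay closer together. The share of genes lower in all 4 mice was then 55.1% and 28.0%.

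By ancestry, the 29 large-subunit genes with a bacterial counterpart had a median log2 fold change of -0.29, and 27 of them were negative. The 18 tested large-subunit genes without one had a median of -0.38, and 15 were negative. Among small-subunit genes the 16 listed with a bacterial counterpart had a median of -0.33, with 12 negative. The 9 other tested genes had a median of -0.22, with 8 negative. These 9 hold Mrps18b, a relative of Mrps18c, which is among the 16. Mrps30, Mrps18a and Mrps36 were left out of this split. Among the 9 no gene was called by edgeR, DESeq2 or limma voom. At an unadjusted p under 0.05 in edgeR 1 of them was lower, where 11.0% of all genes tested were. Genes not listed with a bacterial counterpart thus had the lower median in the large subunit and the higher one in the small subunit.

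Just below the called genes in the large subunit came Mrpl43, Mrpl54, Mrpl40, Mrpl28 and Mrpl55, of which Mrpl28 and Mrpl55 have bacterial counterparts. Mrpl43 stood at 40.6, 32.6, 29.1 and 41.3 CPM in mtD2- against 21.7, 28.4, 18.7 and 26.8 in mtD2+ (log2 -0.59, SE 0.16, adjusted p = 0.0708). Mrpl54 stood at 37.4, 40.9, 36.5 and 57.2 CPM in mtD2- against 28.4, 34.2, 23.3 and 21.3 in mtD2+ (log2 -0.68, SE 0.20, adjusted p = 0.0881). In both genes the groups did not overlap. Mrpl40, at 24.9 to 31.5 CPM in mtD2- and 14.5 to 23.4 in mtD2+, showed no overlap either (log2 -0.49, SE 0.16, adjusted p = 0.112). Mrpl28 (log2 -0.48, adjusted p = 0.112) was lower in 3 mice and Mrpl55 (log2 -0.46, adjusted p = 0.124) in 4, with overlapping groups.

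In the small subunit the next genes were Mrps18c, Mrps14, Mrps28, Mrps25 and Mrps2, of which Mrps25 alone has no bacterial counterpart. Mrps18c stood at 27.8, 36.9, 38.0 and 29.8 CPM in mtD2- against 19.3, 25.9, 19.8 and 23.3 in mtD2+, without overlap (log2 -0.59, SE 0.16, adjusted p = 0.0689). Mrps14 stood at 76.6, 76.9, 61.9 and 81.5 CPM in mtD2- against 57.7, 61.4, 43.4 and 63.5 in mtD2+ (log2 -0.40, SE 0.11, adjusted p = 0.0722). It was lower in all 4 mice, and the groups overlapped by a single mtD2+ library. Mrps28 (log2 -0.40, adjusted p = 0.152) and Mrps25 (log2 -0.37, adjusted p = 0.219) were also lower in all 4 mice, and Mrps2 (log2 -0.50, adjusted p = 0.238) in 3. Of the exonic bases of Mrps25, 53.7% are shared with Nr2c2 on the other strand, so its level is uncertain.

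Several genes have distinct tasks in the ribosome. Mrpl10, Mrpl11 and Mrpl12 encode the stalk of the large subunit, which recruits translation factors, and had log2 fold changes of -0.31 (SE 0.19), -0.24 (SE 0.22) and -0.29 (SE 0.19). Mrpl45, whose protein anchors the ribosome to the inner membrane, stood at 29.2, 26.7, 35.5 and 39.4 CPM in mtD2- against 26.9, 27.8, 10.3 and 25.6 in mtD2+ (log2 -0.60, SE 0.28, adjusted p = 0.252). The low value was that of mouse 3, and without that mouse the log2 fold change was -0.22. Mrpl44, a large-subunit protein with a ribonuclease fold, stood at 25.8, 27.6, 24.4 and 22.4 CPM in mtD2- against 19.6, 21.0, 12.8 and 18.4 in mtD2+, without overlap (log2 -0.50, SE 0.18, adjusted p = 0.140). Mrpl58, a peptidyl-tRNA hydrolase that rescues stalled ribosomes, was at 27.3 ± 6.96 and 28.0 ± 1.72 CPM (SD, n = 4, log2 0.07, SE 0.17). Mrps18b, a relative of Mrps18c in the small subunit, was at 8.19 ± 2.03 and 7.97 ± 1.63 CPM (log2 -0.03, SE 0.25). None of these 7 genes passed the test.

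Besides Mrps6, the gene that was higher in all 4 mice was Mrpl41, a large-subunit gene without a bacterial counterpart, named after its values were seen. It stood at 20.7, 17.4, 22.7 and 30.7 CPM in mtD2- against 34.6, 27.5, 25.2 and 31.0 in mtD2+. The 2 libraries of mouse 4 were close to each other, and the groups overlapped (log2 0.39, SE 0.18, adjusted p = 0.233). The other 10 genes with a positive log2 fold change were Mrpl23, Mrpl24, Mrpl39, Mrpl58, Mrps7, Mrps9, Mrps17, Mrps26, Mrps30 and Mrps36, and none passed the test.

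The level of these mRNAs per kilobase of the deposited gene length spanned a wide range although their proteins are parts of one particle. The ranking depends on that length, which is 5961 bases for Mrpl3 and 412 for Mrpl52. The median over both groups was 10.8 CPM per kilobase, against 4.50 over all genes tested. In the large subunit the highest levels were those of Mrpl42 (75.5 CPM per kilobase), Mrpl52 (73.6) and Mrpl28 (62.6), and the lowest those of Mrpl3 (2.09) and Mrpl23 (1.03). In the small subunit they were Mrps21 (42.6), Mrps28 (34.0) and Mrps6 (31.7) at the top and Mrps22 (1.35) and Mrps34 (0.844) at the bottom. Mrpl52 and Mrps21, both abundant, differed in their change: Mrpl52 stood at 30.9 to 36.3 CPM in mtD2- and 23.3 to 28.6 in mtD2+ (log2 -0.40, SE 0.15, adjusted p = 0.156), and Mrps21 at 51.6 to 59.6 and 46.6 to 61.2 (log2 -0.04, SE 0.11, adjusted p = 0.875). Neither passed the test, and the difference between the 2 genes was not tested.

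**Figure D4:**
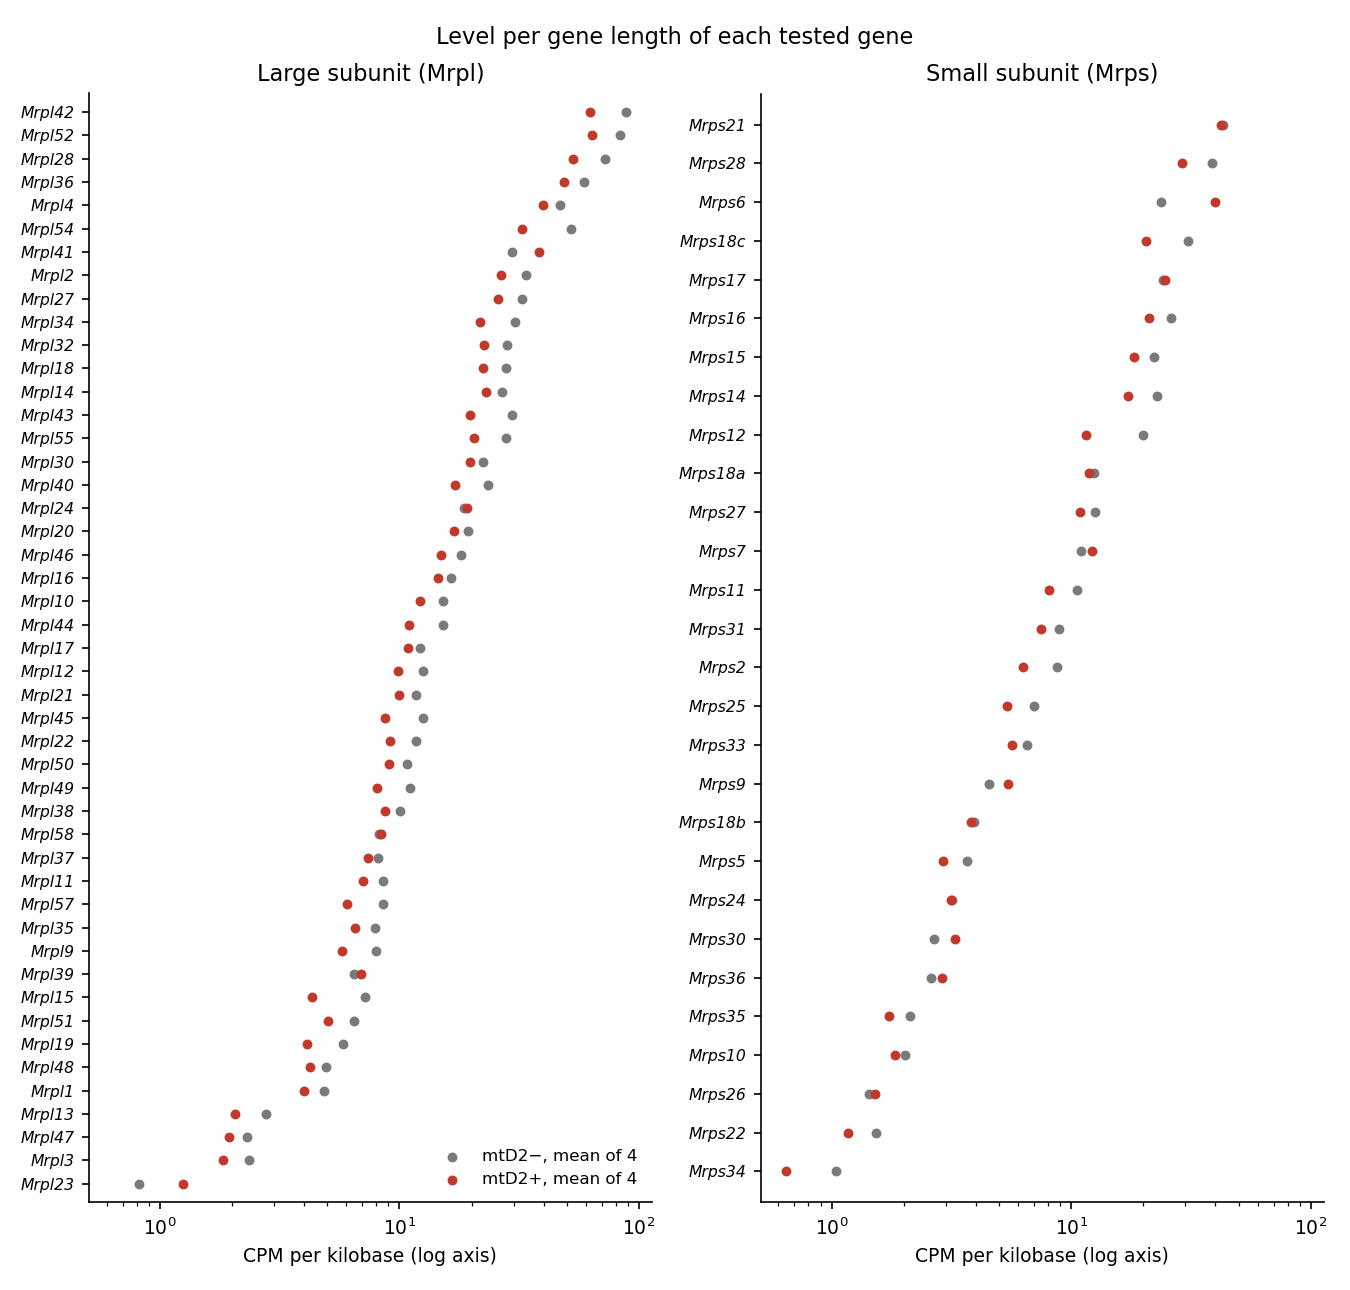
Mean level of each tested gene in CPM per kilobase (logarithmic horizontal axis) in mtD2- (grey) and mtD2+ (red), n = 4 libraries each, ordered by the sum of both. Plotted means run from 0.647 (Mrps34 in mtD2+) to 88.6 (Mrpl42 in mtD2-), and the red point lies left of the grey one for most genes.

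Levels at the low end are less certain. Mrps34 had 9, 8, 85 and 95 counts in mtD2- against 8, 43, 75 and 1 in mtD2+ and ranged from 0.302 to 4.37 CPM within mtD2- (log2 -0.37, SE 1.23), and 77.8% of its exonic bases are shared with other genes, most of all Nme3, which had no count in any library. Mrpl23 had 27 to 69 counts (log2 0.53, SE 0.58) and has a tested pseudogene copy, Mrpl23-ps1, at 1.02 ± 0.187 and 0.860 ± 0.249 CPM (SD, n = 4), whose reads may be exchanged with it. Mrpl3 (log2 -0.36, SE 0.29) and Mrps22 (log2 -0.27, SE 0.34) had standard errors nearly as large as, or larger than, their fold changes. The 2 genes not tested were Mrpl53, with 0 to 6 counts in a library, and Mrps23, with 1 count in all 8 libraries together. Of the exonic bases of Mrpl53, 87.1% are shared with Gm42688 on the same strand.

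Overlaps with other genes touched 26 of the 77 genes. The 50 tested genes without any overlap had a median log2 fold change of -0.31 and 44 negative values, and the 25 with an overlap -0.23 and 19. Across the 75 genes the log2 fold change was only weakly related to gene length (Pearson's r = 0.05, Spearman's rho = 0.16). The same held for GC content (-0.04 and -0.06) and level per kilobase (-0.20 and -0.21). These are descriptions across genes, which share libraries and are not independent replicates. The genes are short, with a median length of 1848 bases against 3459 over all genes tested, and have a median GC content of 49.7% against 49.5%. With the correction for length and GC content, 60 of the 75 were negative, and the medians were -0.20 for the large and -0.14 for the small subunit.

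The proteins of the mitochondrial ribosome with other names had similar values. Dap3, Ptcd3, Chchd1, Aurkaip1 and Gadd45gip1 had a median log2 fold change of -0.21, 4 of the 5 were negative, and none was called by edgeR, DESeq2 or limma voom or had an unadjusted p under 0.05 in edgeR. Chchd1 stood at 18.4, 24.5, 17.8 and 30.6 CPM in mtD2- against 18.2, 17.9, 18.5 and 17.8 in mtD2+ (log2 -0.30, SE 0.20). The ribosomal RNAs of the particle, mt-Rnr1 and mt-Rnr2, did not pass the test, with log2 fold changes of 0.11 (SE 0.16) and 0.25 (SE 0.14), and that of mt-Rnr1 was -0.00048 without mouse 4.

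Factors that assemble the mitoribosome or modify its RNA were mixed in direction. Of 25 tested, 1 rose, where 3.72% of all genes tested were called higher, and none fell. The median log2 fold change was -0.09. The gene that rose was Mrm2, which encodes the methyltransferase that modifies the large-subunit RNA. It stood at 14.1, 12.9, 11.7 and 29.2 CPM in mtD2- against 30.9, 26.6, 27.3 and 54.0 in mtD2+. Both libraries of mouse 4 were the highest of their group, so the groups overlapped, while the log2 ratios within the mice were 1.13, 1.04, 1.22 and 0.89 (log2 fold change 1.07, SE 0.15, adjusted p = 0.00713). The call held whichever mouse was left out and was lost without the pairing (adjusted p = 0.130). Dhx30 (log2 0.42, adjusted p = 0.101), Rpusd4 (log2 -0.54, adjusted p = 0.186) and Mtg2 (log2 -0.47, adjusted p = 0.223) did not pass, although DESeq2 called Dhx30 higher.

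No translation factor and no gene for mitochondrial transcription or RNA handling was called by edgeR. Among 13 translation factors tested the median log2 fold change was -0.17, with Gfm2, a recycling factor, at 0.47 (adjusted p = 0.220), the membrane insertase Oxa1l at -0.27 (adjusted p = 0.234) and the release factor Mtrf1 at -0.69 (adjusted p = 0.329). At an unadjusted p under 0.05, 1 was higher and none lower, DESeq2 and limma voom called none, and Pdf was not tested. Among 20 genes for transcription and RNA handling the median was -0.18, with the RNase P subunit Hsd17b10 at -0.55 (adjusted p = 0.0662), the helicase Supv3l1 at 0.83 (adjusted p = 0.0894) and the polymerase Polrmt at -0.57 (adjusted p = 0.124). At an unadjusted p under 0.05, 2 were higher and 2 lower, and DESeq2 called Hsd17b10 lower and Supv3l1 higher, while limma voom called none. As a background for both lists, 1642 of all 13933 genes tested were higher and 1530 lower at an unadjusted p under 0.05 in edgeR. DESeq2 called 1130 of all genes higher and 669 lower.

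Of 8 regulators of nuclear mitochondrial genes tested, 1 rose and none fell, where 3.72% of all genes tested were called higher. Pprc1, a coactivator related to PGC-1, stood at 52.9, 34.6, 34.5 and 58.8 CPM in mtD2- against 61.0, 57.8, 69.4 and 98.2 in mtD2+. It was higher in every mouse (log2 0.67, SE 0.15, adjusted p = 0.0356), although the groups overlapped, and the call was lost without the pairing, with library totals and without mouse 2, 3 or 4 (log2 0.57 to 0.66). Myc was lower in all 4 mice but did not pass in edgeR (log2 -0.37, SE 0.11, adjusted p = 0.0922), although DESeq2 called it, nor did Yy1 (log2 -0.24) or Gabpb1 (log2 -0.21). Ppargc1a was not tested.

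Other large families of small housekeeping mRNAs were lower by similar amounts. As a background for the counts below, 669 of all 13933 genes tested fell and 1130 rose by DESeq2. By limma voom 372 fell and 694 rose. Of 80 nuclear-encoded respiratory chain genes tested, 1 fell, 76 were negative and the median log2 fold change was -0.32; DESeq2 called 16 lower and limma voom 5. Of 79 cytosolic ribosomal protein genes tested, 4 fell, 1 rose, 57 were negative and the median was -0.22; by DESeq2 10 fell and 3 rose, and by limma voom 6 fell and 1 rose. The median of -0.29 for the mitoribosomal genes lay between these values, so a lower level was not particular to the mitochondrial ribosome. The share of genes lower in all 4 mice was 45.3% for the mitoribosomal genes, 71.3% for the respiratory chain and 49.4% for the cytosolic ribosome.

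**Figure D5:**
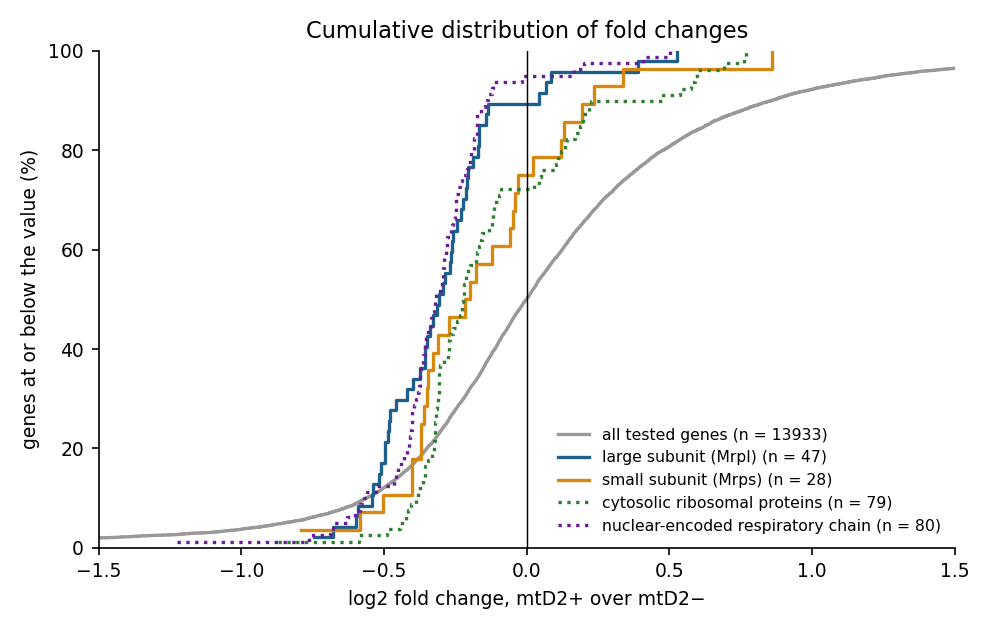
Cumulative distribution of log2 fold changes (mtD2+ over mtD2-, horizontal axis, shown from -1.5 to 1.5) for all 13933 tested genes, the large and small mitoribosomal subunit, cytosolic ribosomal proteins and the nuclear-encoded respiratory chain; the vertical axis gives the percentage of genes at or below a value. The curves of the large subunit and the respiratory chain lie together left of that of all genes around 0, with medians of -0.31 and -0.32.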

How the data were processed

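RNA from 8 libraries of sorted eWAT macrophages, 4 mtD2- and 4 mtD2+ from the same 4 mice, was prepared with a low-input SMARTer kit, per the labels' protocols. Per the submitters' processing notes, the authors used bcl2fastq, STAR 2.0.4b, Subread and featureCounts 1.45 on the build GRCm38. No source used here gives options, annotation or use of strand. The authors deposited whole-number counts per gene for each library. In the deposited files CPM equals counts over the library total and RPKM equals CPM per kilobase of gene length; tests used neither. Precision is limited by counting and by the 4 mice, and the SD and SE are over these.

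Symbols came from GENCODE mouse release M21 on GRCm38, which names 40340 of the 41388 genes; the spans of 50 of the 77 genes equal those of the files, and printed spans are the files'. The test was that of edgeR 4.0.16 under R 4.3.3 (TMM factors, filterByExpr with a minimum count of 10, quasi-likelihood F test, mouse as a block, then group), with Benjamini-Hochberg adjustment over all 13933 genes kept. The SE is the log2 fold change over the square root of F. Levels are CPM of the counts over the tested genes, scaled by the TMM factor. The edgeR test was first run on simulated data with 200 changed genes. The pairing comes from the mouse that the labels name for each library. Across genes, the deviations of the paired libraries from the means of their groups correlated at 0.0385 (mouse 1), 0.0704 (mouse 2), 0.145 (mouse 3) and 0.251 (mouse 4).

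Alternatives were no replicate block, 2 other scalings, 2 other filters, DESeq2 1.42.0, voom of limma 3.58.1, a correction for gene length and GC content, a fit restricted to protein-coding genes and fits with each mouse left out. Named genes are the called ones, in each subunit the 5 next by unadjusted p, the 3 highest and 2 lowest per kilobase, those not tested, a set with known placement or task, and from each related list the called genes and up to 3 next by p. The genes and lists were chosen with earlier results of these data known, and the summed level without Mrps6 was added after seeing the data.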

Additional observations from a re-analysis of the deposited data

Results flagged for a closer look

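Of 66 groups of 4 libraries checked, 3 held a library far from the other libraries of its group. By chance about 1 in 20 of the groups checked would be flagged, so 3 of 66 is near that rate. All 3 were the mtD2+ library of mouse 3. It had 14.5 CPM of Mrpl40 against 22.3 to 23.4 in the other mtD2+ libraries, 10.3 CPM of Mrpl45 against 25.6 to 27.8, and 5.54 CPM of Mrps18b against 8.52 to 8.94. For Mrps18b the mtD2- library of mouse 3 was also the lowest of its group, at 5.47 CPM.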

How the results depend on the processing

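Both subunit medians were negative under each alternative run. Taken as a share of each library's counts, the summed level had a mean log2 ratio of -0.37 for the large and -0.22 for the small subunit. The median log2 fold change moved by more than the spread between mice for the large subunit with the length and GC correction alone, to -0.20. Over the mice left out in turn it was -0.35 to -0.28 for the large and -0.25 to -0.12 for the small subunit. The count of all called genes, 767, was 218 without the replicate block, 1236 with a filter at 5 CPM in 4 libraries, 1799 with DESeq2 and 166 to 555 with a mouse left out. The count of called mitoribosomal genes, 4, was 1 without the replicate block, 7 with the filter at 5 CPM, 9 with DESeq2, 2 with the length and GC correction and 0 to 1 with a mouse left out. Signs turned only for genes that did not pass the test. With the length and GC correction Mrps18b was at 0.10 and Mrps21 at 0.13. With a mouse left out, log2 fold changes ran from -0.0716 (without mouse 3) to 0.171 for Mrpl58, from -0.203 to 0.0781 (without mouse 4, and 0.0428 without mouse 1) for Mrps18a, from -0.0757 to 0.0340 (without mouse 2) for Mrps18b, from -0.0650 to 0.0039 (without mouse 3) for Mrps21, from -1.42 to 0.74 (without mouse 4) for Mrps34, from -0.0391 (without mouse 2) to 0.378 for Mrps36 and from -0.00048 (without mouse 4) to 0.33 for mt-Rnr1. Mrps34 was not tested without mouse 3. The cause was not tested. Mrpl23, with 27 to 69 counts in a library, had an SE of 0.58, against a median of 0.18 over the 75 genes.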
